A study of Mus musculus with 4 samples.

Results

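Ephrins and their Eph receptors were read in RNA of the first pharyngeal arch, the paired outgrowth of the embryonic head that forms the jaws. The members were chosen by gene symbol: 4 ligands (Efnb1, Efnb2, Efnb3 and Efna5) and 6 receptors (Ephb2, Ephb3, Ephb4, Epha3, Epha4 and Epha7), 10 of the 52459 genes listed. All 10 passed the minimum level for testing, as did 16746 genes in all. Mouse embryos were collected between E9.5 and E9.75, with 25 to 27 somites, in 2 groups of 2 libraries each. One group was wild-type. The other was Wnt1-Cre;pMes-Bmp4, called transgenic here, in which Wnt1-Cre, a recombinase driver active in neural crest precursors, turns on the pMes-Bmp4 transgene in their descendants. Neither a Wnt1-Cre group nor a pMes-Bmp4 group was analysed here, so raised Bmp4 and other effects of the alleles cannot be told apart. The labels do not say how many embryos went into a library.

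Eph receptors are receptor tyrosine kinases, and both they and the ephrins are held at the cell surface, so that they signal where cells touch. Ephrin-A ligands are tethered by a lipid anchor and prefer EphA receptors, whereas ephrin-B ligands span the membrane and prefer EphB receptors. Epha4 also binds ephrin-B ligands. Signals run both ways, forward into the receptor cell and reverse into the ligand cell, and often end in repulsion. In the head they help to keep streams of migrating crest cells apart and to set tissue boundaries, and loss of Efnb1 function causes craniofrontonasal syndrome in humans.

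Libraries held between 29607541 and 47849092 reads assigned to genes. Values are normalized read counts, the reads of a gene divided by the size factor of the library. Bmp4 was 3.94-fold higher in the transgenic group (681.7 and 437.1 in wild-type, 2656 and 1745 in transgenic). All 15 crest mesenchyme markers, such as Twist1 and Prrx1, were above the minimum level. Of 12 neural tube and hindbrain markers, 6 stayed under the minimum mean of 10, with Olig2 and Lhx5 listed at 0 in every library. The 12 summed to 2302 and 2175 in wild-type and 1982 and 1466 in transgenic. Of the 6 tested, 1 was called lower, while the log2 fold change was above 0 in 4. The part of neural cells in the ephrin and Eph values was not tested. Since this is RNA of the whole arch, fewer cells of a type and less RNA per cell cannot be told apart.

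The ligands Efna5 and Efnb2 and the receptor Epha4 fell in the transgenic arch, and the other 7 of the 10 genes did not pass the test. Efna5 was 2.2-fold lower, Efnb2 1.86-fold lower and Epha4 1.79-fold lower. No member was called higher (0 of 10 in limma, edgeR and DESeq2, and 0 with an unadjusted limma p under 0.05), while 5 had an unadjusted p under 0.05 in the lower direction. Among all genes tested 5.28% were called lower and 2.97% higher at a limma adjusted p under 0.05. At an unadjusted limma p under 0.05, 2570 of the 16746 were lower and 2246 higher. The median log2 fold change was -0.71 over the 10 members and 0.02 over all genes tested, with 9 of 10 members below 0. Both transgenic libraries lay below both wild-type libraries in 6 members, beside 29.7% of all genes tested, and above them in 1 member, beside 30%.

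Markers of crest mesenchyme, the tissue that carries many of these genes, leaned the same way. Of 15 tested, Tfap2a and Foxc1 were lower, Prrx2 was higher and the other 12 missed the threshold. Over all genes tested 5.28% were called lower and 2.97% higher. At an unadjusted limma p under 0.05, 6 were lower and 2 higher. The log2 fold change was below 0 in 12 of the 15, with a median of -0.42. Both transgenic libraries lay below both wild-type libraries in 8, beside 29.7% of all genes tested. Their summed count was 28785 and 36828 in wild-type and 37697 and 28659 in transgenic, which overlapped. Without Prrx2, left out after the values were seen, it was 22121 and 29833 against 21946 and 16847. Leaving out the marker called higher favours a lower transgenic sum, and replicate 1 of each group was then nearly equal. No conclusion is drawn from that sum. Other cell types also differed between the groups. Red cell genes were called lower in 4 of 9, beside 5.28% of all genes, with sums of 807807 and 736485 against 418886 and 449546. Cranial mesoderm and muscle markers summed to 4064 and 4108 in wild-type and 5997 and 5711 in transgenic, with Isl1 the 1 of 8 called higher. The part of these differences in the ephrin and Eph values was not tested.

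**Figure D1:**
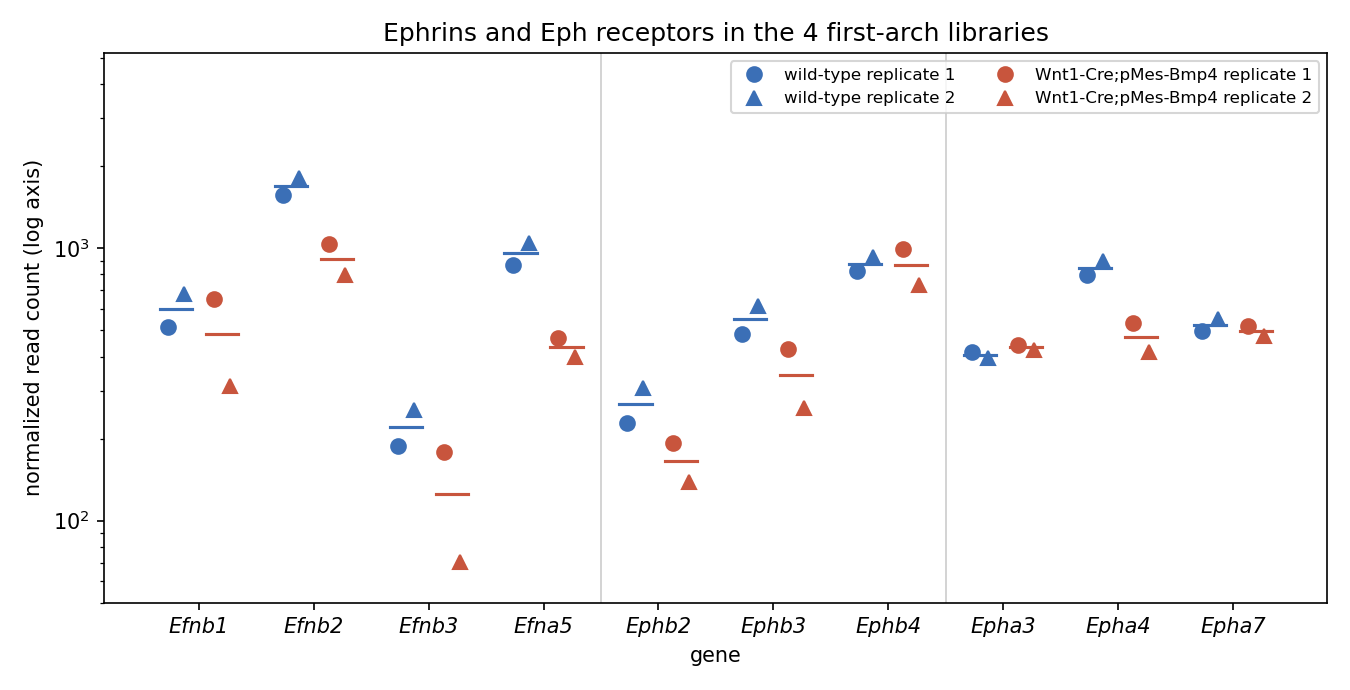
Normalized read count (log axis) of each gene in the 4 libraries. Points are libraries, short lines are group means, and vertical lines part ligands, EphB receptors and EphA receptors. Both transgenic points lie below both wild-type points for Efna5, Efnb2, Epha4, Efnb3, Ephb2 and Ephb3, and above them for Epha3. The group means of Epha3, Epha7 and Ephb4 lie at about the same level.

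The 3 genes that fell are shown with the 250 bases before their transcription start, because they moved together; the sequences are those of RefSeq on GRCm38.p6, 5′ to 3′ on the strand of the gene. They lie at chr17:62881318-62881567 for Efna5, chr8:8661243-8661492 for Efnb2 and chr1:77515089-77515338 for Epha4, each on the minus strand. Capitals mark matches on either strand to 4 motifs: GGCGCC, a GC-rich element bound by BMP Smads, GTCTAGAC, the Smad palindrome, CATCTG, an E-box of Twist and Hand factors, and TGACAG, a core letter run of Meis sites.
Efna5: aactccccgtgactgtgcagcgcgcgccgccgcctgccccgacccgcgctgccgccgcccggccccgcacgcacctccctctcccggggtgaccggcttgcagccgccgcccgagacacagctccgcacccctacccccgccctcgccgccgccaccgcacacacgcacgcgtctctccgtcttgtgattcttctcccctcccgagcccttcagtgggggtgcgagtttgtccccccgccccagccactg
Efnb2: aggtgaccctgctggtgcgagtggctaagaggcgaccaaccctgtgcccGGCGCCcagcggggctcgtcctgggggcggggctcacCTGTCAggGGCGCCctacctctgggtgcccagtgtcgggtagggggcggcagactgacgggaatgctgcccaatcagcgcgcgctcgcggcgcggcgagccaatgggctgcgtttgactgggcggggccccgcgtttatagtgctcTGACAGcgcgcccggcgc
Epha4: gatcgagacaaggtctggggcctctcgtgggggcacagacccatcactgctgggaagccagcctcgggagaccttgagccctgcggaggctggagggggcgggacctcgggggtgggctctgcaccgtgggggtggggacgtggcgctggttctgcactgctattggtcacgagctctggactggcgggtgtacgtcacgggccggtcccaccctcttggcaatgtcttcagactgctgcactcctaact
The Efnb2 window held 2 matches to GGCGCC and 2 to TGACAG, while the windows of Efna5 and Epha4 held 0 of any of the 4 motifs. Over 32851 promoters in the RefSeq table, 9.59% held GGCGCC, 0.167% GTCTAGAC, 14.4% CATCTG and 15.9% TGACAG. Of the 9 members with an entry, Efnb2 and Ephb4 held GGCGCC and Efnb2 alone held TGACAG. The windows are rich in G and C, at 74.8% for Efna5, 72% for Efnb2 and 66% for Epha4. No motif was shared by the 3 genes, and a match is a description of the letters only.

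Efna5 encodes ephrin-A5, a lipid-anchored ligand of EphA receptors that is known for repelling growing axons. Its place is chromosome 17, 62604184 to 62881317 in GRCm38 coordinates, the assembly that mm10 names. Its normalized read count was 867.1 and 1045 in the wild-type libraries and 469.3 and 397.7 in the transgenic libraries, so the groups did not overlap and the gap between them was wider than the spread within either. In limma Efna5 changed by -1.14 ± 0.18 (SE) on the log2 scale (adjusted p 0.0233). Efna5 kept its call after a correction for transcript length, at a log2 fold change of -1.10 and a limma adjusted p of 0.0368. Efna5 no longer passed when wild-type replicate 1 was dropped, at a log2 fold change of -1.27 (limma adjusted p 0.121), or wild-type replicate 2 (0.348), fits in which 0 and 1 of all genes tested passed.

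Efnb2 encodes ephrin-B2, a membrane-spanning ligand carried by crest mesenchyme and by arteries, on chromosome 8 at 8617434 to 8661242. The wild-type libraries read 1567 and 1812 and the transgenic libraries 1032 and 794.2. Each transgenic library was below each wild-type library, and limma put the log2 fold change at -0.90 ± 0.18 (SE; adjusted p 0.0336). The length correction left -0.72, with a limma adjusted p of 0.0625, and the correction for length and GC content -0.68, with a limma adjusted p of 0.0271. Without wild-type replicate 1 the limma adjusted p was 0.143, and without wild-type replicate 2 it was 0.399.

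Efnb2 is also an arterial gene, so vessel markers are given beside it. Of 15 endothelium markers tested 0 passed in either direction, and their summed count was 6348 and 6491 in wild-type and 7878 and 7535 in transgenic. The summed artery markers, 8 genes such as Dll4 and Gja4, read 1727 and 2030 in wild-type and 2326 and 1872 in transgenic. Single markers differed in direction: both transgenic libraries lay below both wild-type libraries for the artery marker Jag1 and the endothelium markers Kdr and Ptprb, and above them for Unc5b, Pecam1, Tek, Emcn, Esam and Egfl7. The part of vessels in the Efnb2 values was not tested.

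Efnb1 and Efnb3 did not pass. Efnb1, the ephrin-B1 gene of craniofrontonasal syndrome, lies on the X chromosome at 99136130 to 99148991 and read 514.8 and 676.8 in wild-type and 652.7 and 311.6 in transgenic. Transgenic replicate 1 lay within the wild-type range and only transgenic replicate 2 lay below it. The log2 fold change of -0.39 had a 95% interval from -1.18 to 0.41 and a limma adjusted p of 0.488. Without transgenic replicate 1 the log2 fold change was -0.92, and without transgenic replicate 2 the sign turned, at 0.14.

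Efnb3, the ephrin-B3 ligand known as a midline barrier to axons, lies on chromosome 11 at 69554092 to 69560205. It read 187.7 and 255.1 in wild-type and 179.2 and 70.32 in transgenic. The lowest value rests on 58 reads, and wild-type replicate 1 and transgenic replicate 1 were close. Limma put the log2 fold change at -0.96 ± 0.44 (SE), with a 95% interval from -1.98 to 0.07 and an adjusted p of 0.198. The log2 fold change was -1.62 without transgenic replicate 1 and -0.29 without transgenic replicate 2.

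Among the receptors Epha4 was the 1 of 6 called. Epha4 is the receptor with the widest ligand range in the family, binding ephrin-A and ephrin-B ligands, and lies on chromosome 1 at 77367185 to 77515088. It read 793.7 and 895.8 in wild-type and 530.1 and 417.1 in transgenic, with no overlap. In limma Epha4 changed by -0.84 ± 0.19 (SE) on the log2 scale (adjusted p 0.04045). Its longest transcript has 6328 bases, and among the 3239 genes of the longest length class (5006 bases and more) the median log2 fold change was -0.41 and 17.3% were called lower. After the length correction Epha4 gave -0.48 with a limma adjusted p of 0.151, and after the length and GC correction -0.55 with a limma adjusted p of 0.0713. Dropping wild-type replicate 1 (limma adjusted p 0.17) or wild-type replicate 2 (0.43) also ended the call.

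Epha3 and Epha7, ephrin-A receptors like Epha4, stayed close to their wild-type levels. Epha3 lies on chromosome 16 at 63543534 to 63864175 and read 413.9 and 393.9 in wild-type and 442.6 and 424.4 in transgenic. Epha7 lies on chromosome 4 at 28813131 to 28967499 and read 496.2 and 548.2 in wild-type and 519.4 and 476.5 in transgenic. The log2 fold change was 0.10 for Epha3, with a 95% interval from -0.30 to 0.51, and -0.07 for Epha7, with one from -0.47 to 0.33. These intervals leave room for a change of either sign (limma adjusted p 0.73 and 0.821). Both transcripts are in the longest length class, and after the length correction the values were 0.39 and 0.34 (limma adjusted p 0.218 and 0.25).

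The EphB receptors did not pass. Ephb2 and Ephb3, which respond to ephrin-B ligands in mesenchyme and epithelium, were lower in each transgenic library than in each wild-type library. Ephb2, on chromosome 4 at 136647539 to 136835988, read 228.5 and 306.5 in wild-type and 192 and 138.2 in transgenic. Ephb3, on chromosome 16 at 21204755 to 21223305, read 485.1 and 612 in wild-type and 425.5 and 258.3 in transgenic. The log2 fold changes were -0.70 and -0.72 (limma adjusted p 0.141 and 0.135). Ephb2 has the longest transcript of the members, at 10902 bases, and its length-corrected log2 fold change was -0.06 (limma adjusted p 0.906), whereas that of Ephb3 was -0.55 (limma adjusted p 0.224). Without transgenic replicate 1 the log2 fold changes of Ephb2 and Ephb3 were -0.93 and -1.07, and without transgenic replicate 2 they were -0.46 and -0.36.

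Ephb4, the receptor that pairs with ephrin-B2 and marks veins, lies on chromosome 5 at 137350109 to 137378669. It read 825.6 and 926.7 in wild-type and 994 and 733.5 in transgenic, so that the transgenic libraries lay on either side of the wild-type range. The log2 fold change was -0.03, with a 95% interval from -0.48 to 0.41 (limma adjusted p 0.921). Of the vein markers tested, 1 of 5 was lower, the nuclear receptor Nr2f2, which crest mesenchyme also expresses, and 4 did not pass. At an unadjusted limma p under 0.05, 2 of the 5 were lower and 1 higher. The 6 vein markers listed summed to 4460 and 4697 in wild-type and 3346 and 2940 in transgenic. The part of veins in the Ephb4 values was not tested. Ephb4 shares 33 exon bases with Zan on the opposite strand, a gene at 9.64 to 17 normalized reads per library.

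**Figure D2:**
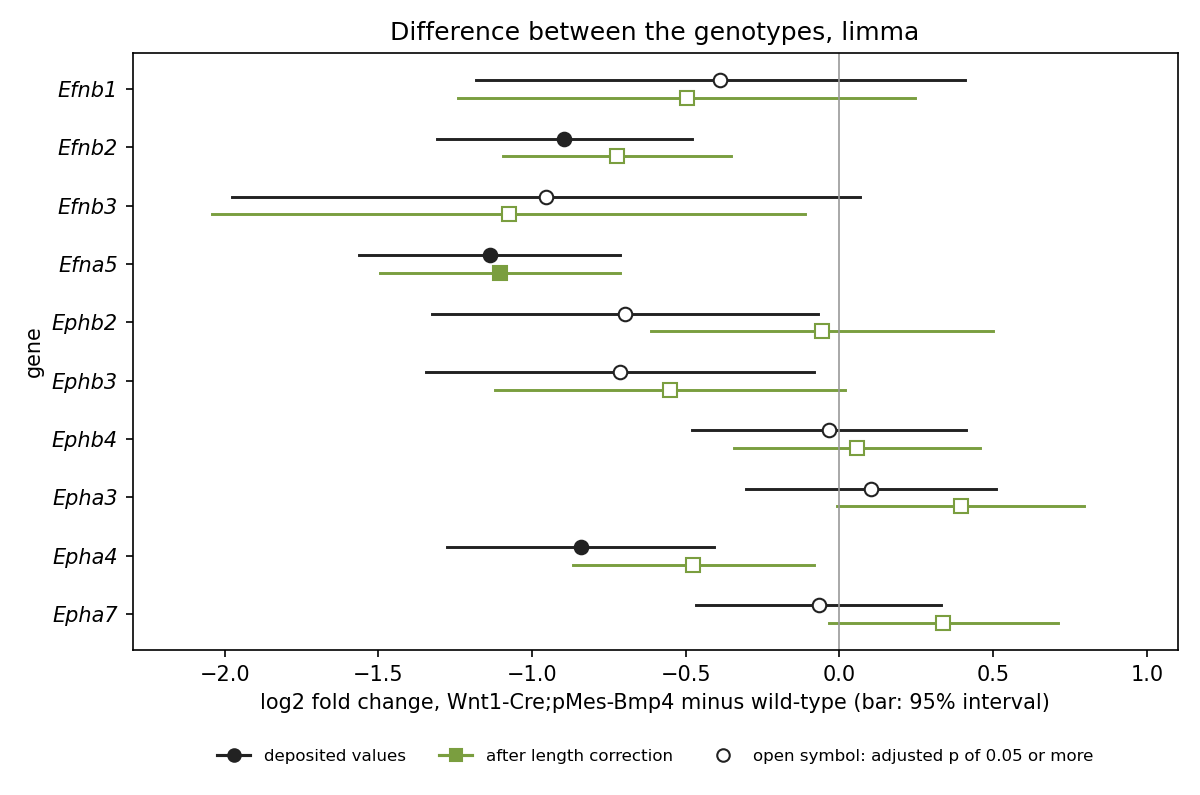
Log2 fold change of each member, transgenic minus wild-type, in limma on the deposited values (circles) and after the length correction (squares). Bars are 95% intervals and filled symbols passed; Efna5 is filled in both, Efnb2 and Epha4 only in the deposited values.

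Transcript length moved with the difference between the groups. Sorted into 5 equal classes by longest transcript, genes of 1512 to 2562 bases had a median log2 fold change of 0.20, and the longest class had -0.41. None of the members was in the 2 shortest classes: Efnb1 and Efnb3 were in the class of 2563 to 3583 bases (median 0.13, 1.91% called lower), Efnb2, Efna5, Ephb3 and Ephb4 in that of 3584 to 5004 (median -0.01, 3.89% called lower), and Ephb2, Epha3, Epha4 and Epha7 in the longest. Efna5 and Efnb2 lay below the interquartile range of their own class, whose lower edge was -0.38, and Epha4 stood below the interquartile range of its class, whose lower edge was -0.78. After the length correction 1 of the 10 members was called lower, beside 0.939% of genes, and 0 higher, beside 0.63%. At an unadjusted limma p under 0.05, 4 members were lower and 0 higher in that fit. Their median log2 fold change was -0.49, with 7 of 10 below 0. After the length and GC correction 2 members were lower, beside 4.53%, and 0 higher, beside 3.97%. Unadjusted, 4 members were lower and 1 higher at a limma p under 0.05. The members' median was -0.34, with 6 of 10 below 0. Of the 16191 genes in these fits, 1965 were lower and 1879 higher at an unadjusted limma p under 0.05 after the length correction. After the length and GC correction 2280 were lower and 2182 higher at that level.

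**Figure D3:**
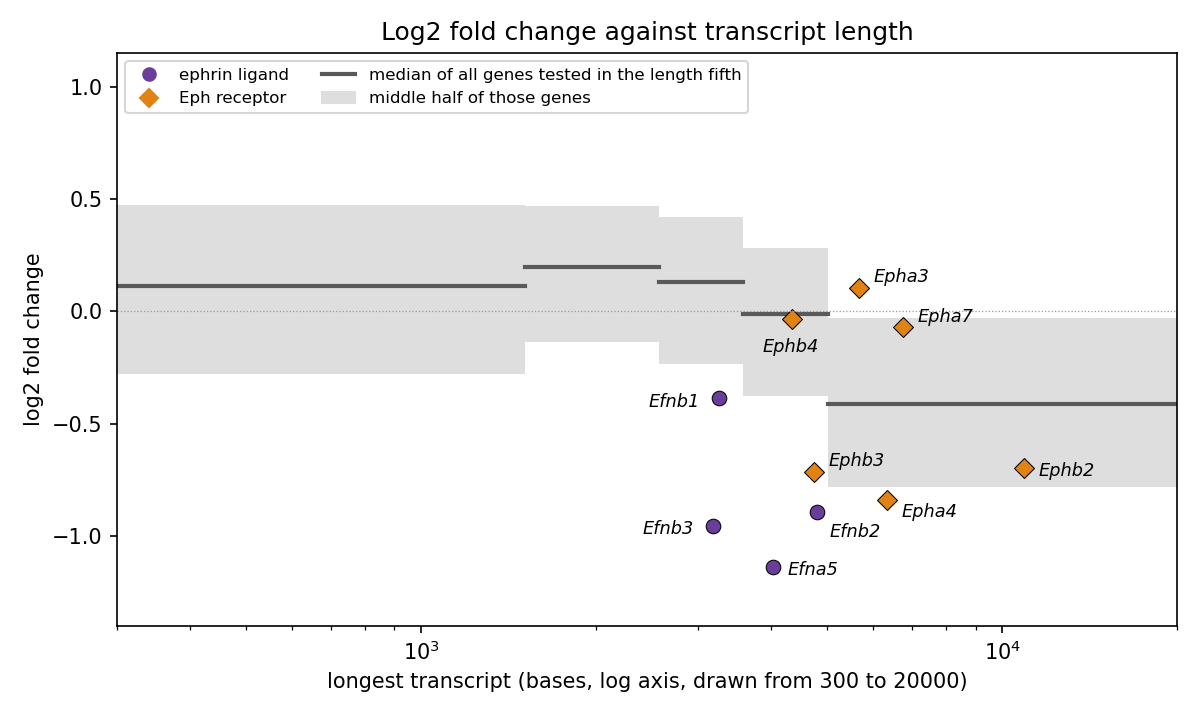
Log2 fold change of the members against longest transcript length (log axis). Grey lines and bands give the median and the interquartile range of all genes tested in each of 5 length classes; the 4 ligands lie below the band of their class, while Epha3 lies above and Epha7 within the band of the longest class.

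Libraries of the same genotype also differed in these genes. Wild-type replicate 2 was above wild-type replicate 1 in 9 of 10 members, beside 50.8% of all genes tested, with Epha3 the exception. Transgenic replicate 2 was below transgenic replicate 1 in 10 of 10, beside 50.4%. As a ratio of replicate 1 to replicate 2, the spread inside the transgenic group was widest for Efnb3, at 179.2 against 70.32, and Efnb1, at 652.7 against 311.6. The cause was not tested.

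Levels can be compared between genes only per kilobase of exon. In wild-type Efnb2 and Efna5 were the most abundant, at 246.5 and 237.1 normalized reads per kilobase, followed by Ephb4 at 188.8 and Efnb1 at 172.6. Epha4 stood at 104.9, Ephb3 at 82.6, Efnb3 at 69.5, Epha7 at 52.8, Epha3 at 46.5 and Ephb2 at 21.2. The wild-type libraries overlapped between Efnb2 and Efna5, between Ephb4 and Efnb1 and between Ephb3 and Efnb3, and neighbours elsewhere in that order were apart. In transgenic arches the order began with Ephb4 at 186.2 and Efnb1 at 139.7, and Efnb2 and Efna5 came next at 133.2 and 107.5. Each of these 4 overlapped with its neighbour, and in transgenic replicate 2 Efnb1 (90.3) stood below both Efnb2 (115.9) and Efna5 (98.6). Taking the longest transcript in place of all exons kept the first 6 genes in order and put Epha7 and Epha3 above Efnb3.

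Ratios of these levels within a library carry no size factor and show how the balance of pairs stood; the pairs were chosen after the values were seen, and no test was made. Efnb2 to its receptor Ephb4 was 1.28 and 1.32 in wild-type and 0.703 and 0.733 in transgenic. Epha4 to Epha7 was 1.96 and 2.01 in wild-type and 1.25 and 1.07 in transgenic, and Epha4 to Epha3 was 2.07 and 2.45 against 1.29 and 1.06. In each of these pairs the first gene stood lower against the second in transgenic arches, and the replicates were closer to each other than to the other genotype. Efnb2 to Efnb1 was less even, at 1.53 and 1.35 against 0.797 and 1.28.

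The rest of the family held 12 genes, of which 10 were tested; Epha6 and Epha8, at means of 3.99 and 6.79 normalized reads, were under the minimum. Efna1, the ephrin-A1 ligand, first found as a factor induced in endothelium, rose 1.7-fold and was the 1 of 10 called. It read 636.4 and 752.9 in wild-type and 1308 and 1058 in transgenic, and limma put the log2 fold change at 0.76 ± 0.18 (SE; adjusted p 0.0453). Its longest transcript has 1632 bases, the length-corrected log2 fold change was 0.55 with a limma adjusted p of 0.152, and the limma adjusted p was 0.235 when wild-type replicate 1 was dropped and 0.362 when wild-type replicate 2 was. Epha1, an EphA receptor of epithelia, had the next smallest p and did not pass, at 118.7 and 126.5 against 184.5 and 177 (limma adjusted p 0.171). It shares 236 exon bases with Zyx on the other strand, and the strand setting of the counting is not stated. Of 14 epithelium markers tested, 2 were higher, and their summed count went from 30960 and 23447 to 41314 and 36860; its part in the Efna1 and Epha1 values was not tested. The median log2 fold change of the 10 was 0.10.

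Efna5 and Efna1, ligands for the same receptors, thus moved in opposite directions in the deposited values. After the length correction the log2 fold changes were -1.10 for Efna5 and 0.55 for Efna1, and only Efna5 passed in limma. The ratios and shares that follow carry no length correction. Per kilobase Efna5 was 0.618 and 0.63 of Efna1 in the wild-type libraries and 0.163 and 0.171 of it in the transgenic ones. Of all ephrin-A reads per kilobase, Efna5 made up 11.9% and 12% in wild-type and 4.82% and 5.02% in transgenic, and Efna1 19.3% and 19.1% against 29.6% and 29.4%. The ephrin-A sum itself overlapped between the groups, at 1806 and 2152 against 2412 and 1967. Efna2 and Efna4 held most of the remainder. The ephrin-B sum was 436.6 and 540.6 in wild-type and 396 and 228.2 in transgenic. EphA receptors summed to 239.2 and 258.8 against 225.8 and 203.2, and Epha4 went from 41.2% and 43% of that sum to 29.1% and 25.5%. EphB receptors summed to 303.2 and 366.8 in wild-type and 349.5 and 245.3 in transgenic, which overlapped.

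**Figure D4:**
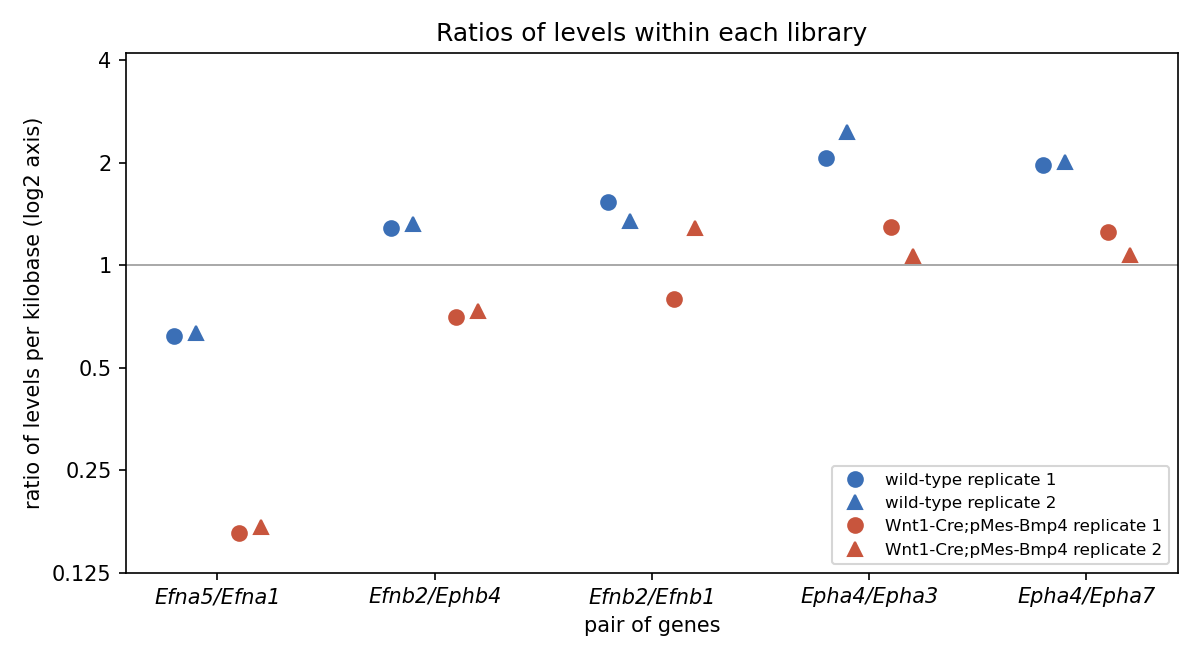
Ratio of levels per kilobase of exon, without the length correction, for 5 pairs of genes within each library (log2 axis, line at 1). Efna5 to Efna1 and Efnb2 to Ephb4 have replicates close together and the genotypes apart; Efnb2 to Efnb1 is spread within the transgenic group.

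Signal partners of Ephs and ephrins divided between the directions. Of 37 adaptors, kinases, exchange factors and GTPases tested, 7 were lower, 2 were higher and 28 did not pass. Over all genes tested the shares were 5.28% lower and 2.97% higher. At an unadjusted limma p under 0.05, 13 of the 37 were lower and 7 higher, beside 2570 and 2246 of all 16746 genes. The median log2 fold change was -0.10. Abl2, an Abl-family kinase that acts on the actin cytoskeleton, was 2.89-fold lower, from 634.9 and 834.1 to 273 and 231.6 (limma adjusted p 0.0211). The PDZ adaptor Grip1, which binds ephrin-B tails, and the exchange factor Vav2 fell by factors of 2.18 and 1.89 (limma adjusted p 0.035 and 0.04). Syntenin (Sdcbp), a PDZ protein that also binds ephrin-B tails, rose 1.73-fold and the GTPase Rac1 rose 1.46-fold (limma adjusted p 0.0397 and 0.0406). Rac1 shares 2309 exon bases with Daglb on the opposite strand, a gene at 155 to 268.8 normalized reads.

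The partner calls differed between the corrections. After the length correction, where 0.939% of all genes were lower and 0.63% higher, limma called 0 of 37 in either direction (8 higher and 7 lower at an unadjusted p under 0.05), and Abl2 gave -0.92 (limma adjusted p 0.0541). After the length and GC correction 4 of 37 were higher, beside 3.97% of all genes, and 3 lower, beside 4.53%. At an unadjusted limma p under 0.05, 7 were higher and 7 lower in that fit. Among those called were Abl2 at -0.87, Grip1 at -0.88 and Rac1 at 0.59 (limma adjusted p 0.0248, 0.0463 and 0.0234). On the recovered reads edgeR called 7 lower and 1 higher, and DESeq2 11 lower and 5 higher. Over all 16746 genes tested edgeR called 915 lower and 409 higher, and DESeq2 called 1573 lower and 1234 higher. With either wild-type library dropped, 0 of 37 passed in limma (at an unadjusted p under 0.05, 3 higher and 12 lower without replicate 1, and 2 higher and 8 lower without replicate 2).

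Other families of repulsive cues are given for comparison. Of 22 semaphorin, neuropilin, plexin, Slit and Robo genes tested, 5 were lower and 0 higher in limma, with a median log2 fold change of -0.62. EdgeR called 5 lower and 0 higher, and DESeq2 8 and 0. At an unadjusted limma p under 0.05, 12 were lower and 1 higher, beside 2570 and 2246 of all 16746 genes tested. The 5 called in limma were the plexin receptors Plxnd1, Plxna3 and Plxnb2, the ligand Slit3 and its receptor Robo1, with log2 fold changes of -1.33, -1.09, -0.93, -1.12 and -0.70. Slit3 went from 538.5 and 570.8 to 278.4 and 231.6 (limma adjusted p 0.0264), and Plxnd1 from 385.7 and 512.2 to 197.3 and 156.4 (limma adjusted p 0.0272). After the length correction 0 of the 22 passed in limma (1 higher and 4 lower at an unadjusted p under 0.05), with a median of -0.12, while the median of the 10 ephrin and Eph members was -0.49. After the length and GC correction 1 was lower, Slit3 at -0.72 (limma adjusted p 0.0349), and 1 higher, Sema3a at 0.59 (limma adjusted p 0.0247), a ligand named after its values were seen. No test was made of a difference between these lists.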

How the data were processed

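PolyA-selected RNA was sequenced in 4 libraries, per the labels' protocols. Per the file headers, the authors counted reads with featureCounts, and what they deposited is a normalized signal: each count over the size factor of its library. Fastp 0.21.0 and mm10 come from the submitters' processing notes. For the aligner, the annotation and the strand setting, the choice is not given in the sources used here. Every value was a whole multiple of the smallest in its column (100%, within 0.01), which gave back the reads. Median-of-ratios factors computed from the reads equalled those used.

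Log2(value + 1) was tested in limma 3.58.1 (R 4.3.3) with a variance trend, two-sided, over the 16746 genes that averaged 10 or more. P-values were adjusted by Benjamini-Hochberg over all of them, and those under 0.05 passed. On this log2(value + 1) scale fold changes of low genes are understated. The fit had 2 residual and 5.26 prior degrees of freedom, and the smallest p of an exact permutation test of 2 libraries against 2 is 0.333. No label says that libraries came from separate embryos, so p-values measure the spread between these samples, which may be technical.

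Gene models came from GENCODE M21 on GRCm38, with a unique symbol match for 96.7% of genes tested. The length correction subtracted from each library a spline (4 degrees of freedom) of its deviation from the gene mean on log2 longest transcript, estimated from genes averaging at least 50; another added GC content. Further settings were a pseudocount of 0.5 or 5, every gene with reads, a minimum mean of 50, TMM scaling, a replicate block, each library left out, and edgeR 4.0.16 and DESeq2 1.42.0 on the recovered reads. The main limma fit and the length correction were also run on simulated data, whose outcome is not reported here. The 10 members, the lists (12 further family genes, 37 partners, 23 guidance genes) and the markers were chosen with earlier results of these data known. Every member was named. From each list at most 6 genes past the threshold were named, in order of p, or the leading 2 where fewer than 2 passed; 1 partner that this rule names is not reported here. Python 3.11.15 with matplotlib 3.10.9 drew the figures.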

Additional observations from a re-analysis of the deposited data

How the results depend on the processing

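Of the 15 alternatives, Efna5 passed in 13, Efnb2 in 12, Epha4 and Efna1 in 10 each, and these 4 kept their sign in all of them. The 15 include a replicate block with crossed numbers, described below and chosen after the data were seen, in which all 4 passed. They also include the fits with 1 library left out. Members called lower were 3 with the deposited values, 1 after the length correction and 0 to 7 with 1 library left out. Over all genes tested 498 were higher and 884 lower. The replicate block gave 165 and 543 and 2 members lower (Epha4 lost, limma adjusted p 0.0693), DESeq2 gave 1234 and 1573, and the length correction 102 and 152. Leaving out 1 library gave 0 to 2675 higher and 0 to 2719 lower; a lone sample in a group is then assumed to vary like the other group. No gene passed without wild-type replicate 1 (limma: 0 higher, 0 lower, and 3185 with unadjusted p below 0.05), and 1 was higher and 0 lower without wild-type replicate 2 (1806 with unadjusted p below 0.05); of the members, 5 and 3 were below it unadjusted.

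Same-numbered libraries deviated in opposite directions (r = -0.27 across 12411 genes, which are not independent replicates), so the block with crossed numbers, chosen after seeing the data, was also fitted: 1763 genes were higher, 1952 lower, and 6 members lower. The block pairs libraries that share only a number.

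Signs turned only in members that did not pass. Ephb4 was 0.058 after the length correction, 0.29 after the length and GC correction, and -0.25 to 0.18 with 1 library left out. Epha7 was 0.34 and 0.22 after these corrections and -0.14 to 0.0036 with 1 library left out. Ephb2 was 0.087 after the length and GC correction, and Efnb1 ranged from -0.92 to 0.14 with 1 library left out. The cause was not tested. Depth limits Efnb3 most, with 58 to 253 reads per library.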
